A study of Rattus norvegicus with 6 samples.

Results

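The claudins are the proteins that build the strands of the tight junction, the belt that closes the gap between neighbouring epithelial cells. In the kidney each tubule segment makes its own set, and that set decides whether the path between the cells lets cations, anions or water through or holds them back. Pore-forming claudins of the proximal tubule carry part of the sodium and water that is taken back there, those of the thick ascending limb carry calcium and magnesium, and those of the collecting duct mostly form a barrier. The 10 claudins described here (Cldn1, Cldn2, Cldn3, Cldn4, Cldn7, Cldn8, Cldn10, Cldn14, Cldn16 and Cldn19) were chosen by name as those of the tubule. A probe belonged to one of them when its transcript accession maps to that symbol. This gave 20 probes for all 10 genes, out of 61515 probes analysed and 15642 genes with a named probe.

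Renal cortex was taken from 6 male Sprague-Dawley rats of the Crl:CD(SD) stock, bought at 5 weeks of age and kept on a basal diet. The control group of 3 was given water. The other 3 received ethylenediamine dihydrochloride, a salt of a small diamine, at a daily dose of 500 mg/kg. Dosing lasted 4 weeks in both groups, and no genetic change is named for either. The route of dosing is not given in the sources used here. Total RNA of each rat was read on 1 one-colour Agilent array, so n is 3 rats per group. The cortex is a mixture of cells, so fewer cells of a type and less RNA per cell cannot be told apart in any value below.

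A level is given here as the log2 of the processed spot signal minus the 75th percentile of the array, so 0 is the brightness of a fairly bright probe. Probes bind with different strength, so a level is compared only with the same probe on another array. Between 35691 and 40843 probes were well above background on an array, the fewest on ethylenediamine replicate 1. The arrays came from 2 slides scanned separately, the 3 water arrays and ethylenediamine replicate 1 on slide 1 and ethylenediamine replicates 2 and 3 on slide 2. Treatment and slide are therefore partly confounded, and the difference within slide 1, which rests on 1 treated array, is given beside the results as a difference of log2 levels. Of the segment markers listed, those well above background on all 6 arrays were 15 of 15 for the proximal tubule, 5 of 7 for the thin limb, 11 of 13 for the thick ascending limb, 9 of 13 for the distal convoluted and connecting tubule and 13 of 14 for collecting duct principal cells. These show the tubule segments in the RNA and do not tell cortex from outer medulla.

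Promoter windows of 3 members are shown because the values below turn on them: Cldn3 and Cldn19 had the largest positive differences among the 10 members, and Cldn16 is the partner with which Cldn19 forms a cation-selective pore. Each window holds the 250 bases before the gene's start in the RefSeq annotation of GRCr8, 5′ to 3′ on the gene's strand. Capitals mark the GC box GGGCGG and the E-box CACCTG, read on both strands.
Cldn3 (chr12:27346548-27346797, minus strand): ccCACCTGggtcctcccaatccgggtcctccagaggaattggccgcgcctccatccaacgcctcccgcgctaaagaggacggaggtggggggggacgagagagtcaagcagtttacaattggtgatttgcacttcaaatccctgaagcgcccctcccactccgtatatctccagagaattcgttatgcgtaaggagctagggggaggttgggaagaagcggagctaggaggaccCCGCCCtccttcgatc
Cldn16 (chr11:87814397-87814646, minus strand): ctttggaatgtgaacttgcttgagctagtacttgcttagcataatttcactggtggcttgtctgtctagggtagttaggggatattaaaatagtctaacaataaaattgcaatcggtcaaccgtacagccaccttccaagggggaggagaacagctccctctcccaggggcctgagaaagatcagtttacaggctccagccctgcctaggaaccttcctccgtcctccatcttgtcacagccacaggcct
Cldn19 (chr5:138148325-138148574, plus strand): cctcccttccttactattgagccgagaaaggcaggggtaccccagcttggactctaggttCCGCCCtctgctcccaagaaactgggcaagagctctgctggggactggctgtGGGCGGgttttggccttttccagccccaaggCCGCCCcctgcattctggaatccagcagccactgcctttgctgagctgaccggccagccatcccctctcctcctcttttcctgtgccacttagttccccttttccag
The Cldn19 window holds 3 GC boxes, the Cldn3 window 1 GC box and 1 E-box, and the Cldn16 window neither. The windows of Cldn1 and Cldn7, not printed, also hold GC boxes, and these genes had log2 fold changes of 0.06 and -0.02. Of the 8 members found in the table, 4 windows hold a GC box and 3 an E-box, against 30.5% and 15.9% of 33469 windows of the same length. The grainyhead core AACCNGTT was in 0 of the 8, against 1.76% of all windows, the HNF1 motif GTTAAT in 1, that of Cldn10, against 6.45%, and TATAAA in 0, against 12.9%. The motifs do not overlap one another in the 3 windows printed. A match is only a match of letters.

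All 10 claudins were well above background on all 6 arrays with at least 1 probe, so none entered the comparison through 1 group alone. Of their 20 probes 19 were kept, and the second Cldn14 probe was not. The question asked was whether any tubular claudin differed in the cortex after 4 weeks of ethylenediamine. By limma, fitted over 11530 genes with the brightest probe of each, 0 of 10 claudins passed an adjusted p under 0.05, as did 0% of all genes in either direction. At an unadjusted p under 0.05 there were 3 of 10 claudins, 2 higher (Cldn3 and Cldn19) and 1 lower (Cldn14), where 10.4% of all genes were (5.39% higher and 4.97% lower). Under median scaling those counts over all genes were 437 higher and 724 lower, against 621 and 573 here. The count of 3 claudins was 1 without water replicate 2, water replicate 3 or ethylenediamine replicate 2, and when blocking on slide. It was 2 without water replicate 1. Among other alternatives, median scaling, quantile scaling and the deposited values gave 1 claudin higher and 1 lower. Another background correction (normexp) and an intensity trend each gave 2 higher and 0 lower. The 2 groups did not overlap for 2 of 10 claudins, Cldn3 higher and Cldn14 lower, close to the 17.5% of all genes (9.2% higher, 8.27% lower). The median log2 fold change was -0.02 over the claudins and -0.0036 over all genes tested, and the claudins ran from -0.28 to 0.50. Probe by probe, 0 of 19 passed the adjusted threshold, against 0.0106% of the kept probes upwards and 0% downwards. At an unadjusted p under 0.05 there were 4 claudin probes higher and 2 lower, against 4.85% and 5.84% of kept probes, and the groups did not overlap for 3 upwards and 3 downwards, against 8.43% and 9.57%.

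**Figure D1:**
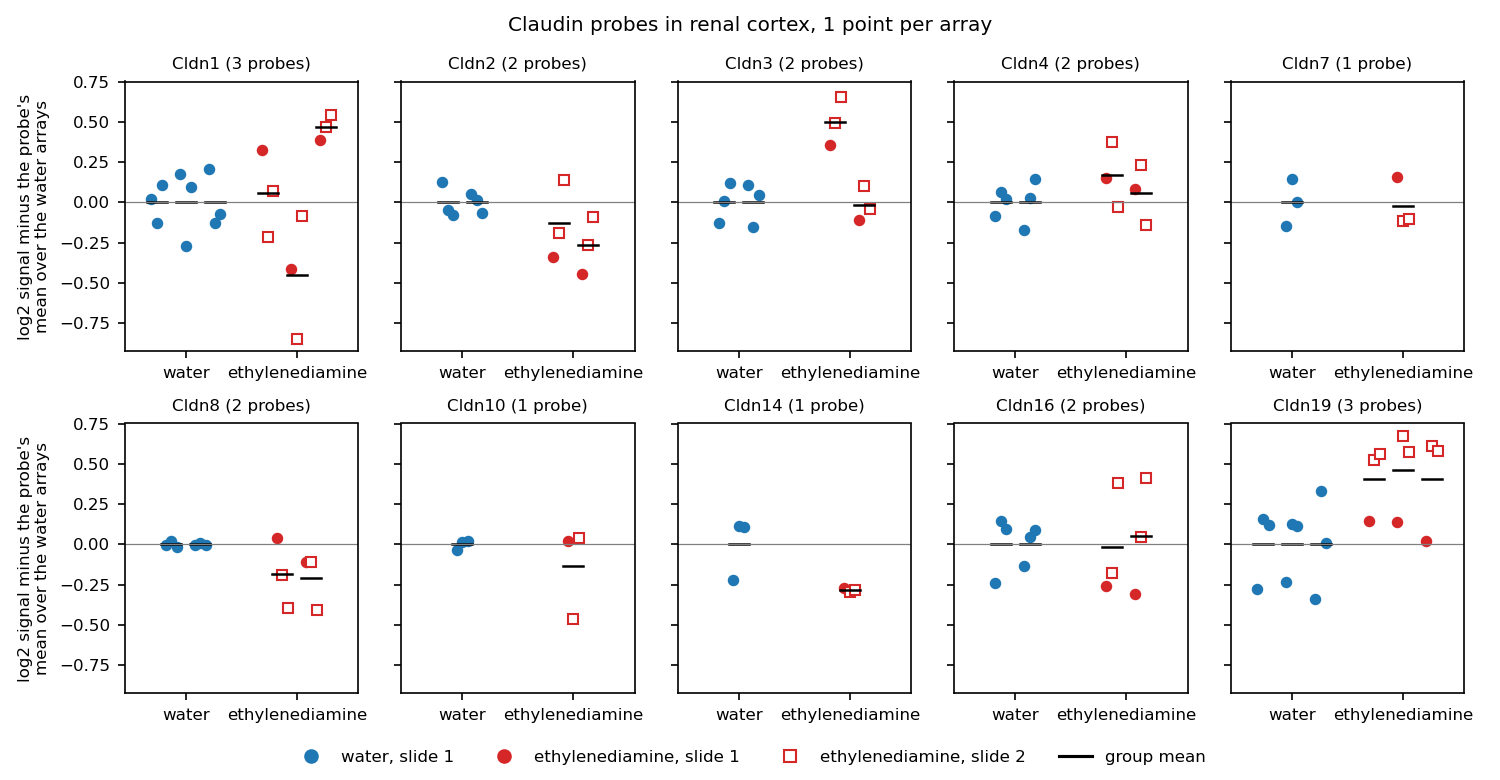
Each point is 1 array, plotted as the log2 signal of a kept probe minus that probe's mean over the 3 water arrays, with the probes of a gene side by side and black bars for group means. Filled circles are slide 1 and open squares slide 2; all 3 Cldn19 probes stand highest on the 2 slide 2 arrays, while the Cldn3 probes differ from each other.

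In the proximal tubule, claudin-2 forms the paracellular pore for sodium and water. Claudin-10 makes an anion pore there and, in another splice form, a cation pore of the thick limb. The brighter Cldn2 probe had levels of 3.38, 3.21 and 3.18 on water replicates 1 to 3 and of 2.92, 3.07 and 3.40 on ethylenediamine replicates 1 to 3. The groups overlap, since ethylenediamine replicate 3 was the highest array of all 6 and replicate 1 the lowest. Its log2 fold change was -0.13 ± 0.14 (SE, n = 3 per group), or 0.914-fold with a 95% interval of 0.725 to 1.15 (limma adjusted p = 0.753). The second Cldn2 probe read 0.21, 0.17 and 0.09 in water and -0.29, -0.11 and 0.06 in treated cortex, so that every treated array lay below every water array. There the log2 fold change was -0.27 ± 0.10, at an unadjusted p of 0.0403 and an adjusted p of 0.448 over the 37822 kept probes (limma). Both Cldn2 probes thus gave a negative difference, of -0.34 and -0.44 within slide 1 and of -0.03 and -0.18 on slide 2 against water. Without ethylenediamine replicate 1 the brighter probe had a log2 fold change of -0.03, without replicate 3 one of -0.26, and without water replicate 1 one of -0.07.

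Cldn10 was read by 1 probe, and which splice form that probe reads is not given in the sources used here. Its levels were 2.17, 2.22 and 2.23 in water and 2.23, 1.74 and 2.25 in treated cortex. Ethylenediamine replicate 2 alone lay below the water arrays, and the other treated arrays stood at or above the water levels. The log2 fold change of Cldn10 was -0.13 ± 0.15 (limma adjusted p = 0.763), and it was 0.03 without ethylenediamine replicate 2 and 0.02 within slide 1. Cldn1, a barrier claudin that also marks the parietal epithelium of the glomerular capsule, was read by 3 probes that did not run together. The brightest read 0.07, -0.07 and 0.16 in water and 0.38, -0.16 and 0.13 in treated cortex, overlapping groups with a log2 fold change of 0.06 ± 0.15 (limma adjusted p = 0.91). For the second Cldn1 probe the levels were -0.07, -0.51 and -0.15 in water and -0.66, -1.09 and -0.33 in treated cortex, and for the dimmest they were -2.06, -2.39 and -2.34 against -1.88, -1.79 and -1.72. The second probe thus differed by -0.45 ± 0.22 and the last by 0.46 ± 0.11 in log2, where every treated array lay above every water array (limma adjusted p = 0.530 and 0.347 over the kept probes). Within slide 1 the 3 probes stood at 0.32, -0.41 and 0.39. The difference between the dimmest and second probes, taken within each array, was larger on all 3 treated arrays than on any water array, by 0.91 on average. This pair was chosen after its values were seen, so no test is given. No direction can be given for Cldn1 from these probes.

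The thick ascending limb holds the pair claudin-16 and claudin-19, whose loss causes urinary wasting of magnesium and calcium, and claudin-14, which blocks that pair and is raised by the calcium-sensing receptor. The brightest Cldn19 probe read 1.67, 2.10 and 2.06 in water and 2.08, 2.46 and 2.50 in treated cortex. Ethylenediamine replicate 1 fell among the water arrays, and replicates 2 and 3, both on slide 2, stood above all of them. The log2 fold change of Cldn19 was 0.41 ± 0.17 (SE, n = 3 per group), or 1.33-fold with a 95% interval of 1.00 to 1.76, at an unadjusted p of 0.0496 and an adjusted p of 0.481 by limma. All 3 Cldn19 probes gave the same direction and near the same size. On the second they read -0.46, -0.10 and -0.12 in water against -0.09, 0.45 and 0.35, and on the dimmest -0.60, 0.07 and -0.25 against -0.23, 0.35 and 0.33. The second parted the groups narrowly, at ethylenediamine replicate 1 and water replicate 2, and the dimmest did not. Their log2 fold changes were 0.46 ± 0.17 and 0.40 ± 0.23. Within slide 1 the 3 probes had differences of 0.14, 0.14 and 0.02, and the 2 arrays of slide 2 stood 0.54, 0.62 and 0.60 above the water mean, so for Cldn19 treatment and slide cannot be told apart. Without water replicate 1 the brightest Cldn19 probe had a log2 fold change of 0.27.

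Cldn16 gave no such pattern. Its brighter probe read -1.62, -1.23 and -1.28 in water and -1.64, -1.55 and -0.99 in treated cortex, where replicate 1 was the lowest array of all and replicate 3 the highest. The second Cldn16 probe ordered the treated arrays the same way, at -1.90, -1.55 and -1.18, beside -1.73, -1.55 and -1.50 in water. The log2 fold changes of the 2 probes were -0.02 ± 0.20 and 0.05 ± 0.19 (limma adjusted p = 0.981 and 0.942), and the 95% interval of the brighter one, from 0.701- to 1.39-fold, was on the log2 scale the widest of the 10 genes. Within slide 1 they were -0.26 and -0.31, and without ethylenediamine replicate 1 the brighter probe stood at 0.10. The difference of Cldn19 over Cldn16 within an array was 3.28, 3.32 and 3.34 on the water arrays and 3.72, 4.02 and 3.49 on the treated arrays. It was larger on every treated array, ethylenediamine replicate 1 of slide 1 included, by 0.43 on average. The comparison was chosen after its values were seen, so it is a description with no test.

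Cldn14 had the smallest spread over the treated arrays of all kept claudin probes. Its kept probe was also the dimmest of them. The lowest level well above background was -4.45 on ethylenediamine replicate 1 and -5.51 on water replicate 1. The kept probe read -3.86, -3.53 and -3.53 in water and -3.92, -3.94 and -3.93 in treated cortex, so that every treated array was below every water array. Water replicate 1 was the water array nearest to them. The log2 fold change was -0.28 ± 0.10, or 0.821-fold with a 95% interval of 0.688 to 0.980 (unadjusted p = 0.0342, limma adjusted p = 0.452), and it was -0.27 within slide 1. With another background correction, normexp, the value was -0.10, and without water replicate 1 it was -0.40. The second Cldn14 probe was well above background on 2 of 3 water and 0 of 3 treated arrays, so no fold is given for it.

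Other thick limb genes were set beside these claudins on the same arrays. Among 161 genes of the other lists measured on all 6 arrays, the one whose centred levels lay closest to those of Cldn16 was Casr, the calcium-sensing receptor, with a root mean square difference of 0.050 over the 6 arrays where Cldn16 itself varied by 0.236. Casr read 3.43, 3.71 and 3.61 in water and 3.28, 3.44 and 3.96 in treated cortex, lowest and highest on the same treated arrays as Cldn16. For Cldn19 the closest was Umod, the uromodulin gene, at 0.096 against its own 0.280, and for Cldn14 it was Grhl2, a grainyhead transcription factor, at 0.068 against 0.181. Closeness was taken over the same 6 arrays, treated ones included, so a like group difference follows in part from the choice. Umod had a log2 fold change of 0.25 ± 0.17, Casr of -0.02 ± 0.19 and the salt carrier gene Slc12a1 of -0.02 ± 0.22 (limma adjusted p = 0.654, 0.973 and 0.984). Within slide 1 they stood at 0.05, -0.31 and -0.37, and without water replicate 1 Umod stood at 0.07. Water replicate 1 was the lowest water array for Cldn14, Cldn16, Cldn19, Casr, Slc12a1 and Umod alike. Among 11 measured thick ascending limb markers 0 passed the adjusted threshold by limma. Without adjustment p was under 0.05 for 2, both with a negative difference, where 4.97% of all genes were lower. Of the 11 markers 10 were negative, where 5898 of all 11530 genes were, and the list's median was -0.19 in log2. Bright genes weigh most in a summed linear signal, and Umod, bright among these, was the only marker of the 11 with a positive difference. The summed linear signal of that list ran from 664 to 822 times the scaling value in water and from 671 to 776 in treated cortex. Its part in the Cldn14 and Cldn19 values was not tested.

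**Figure D2:**
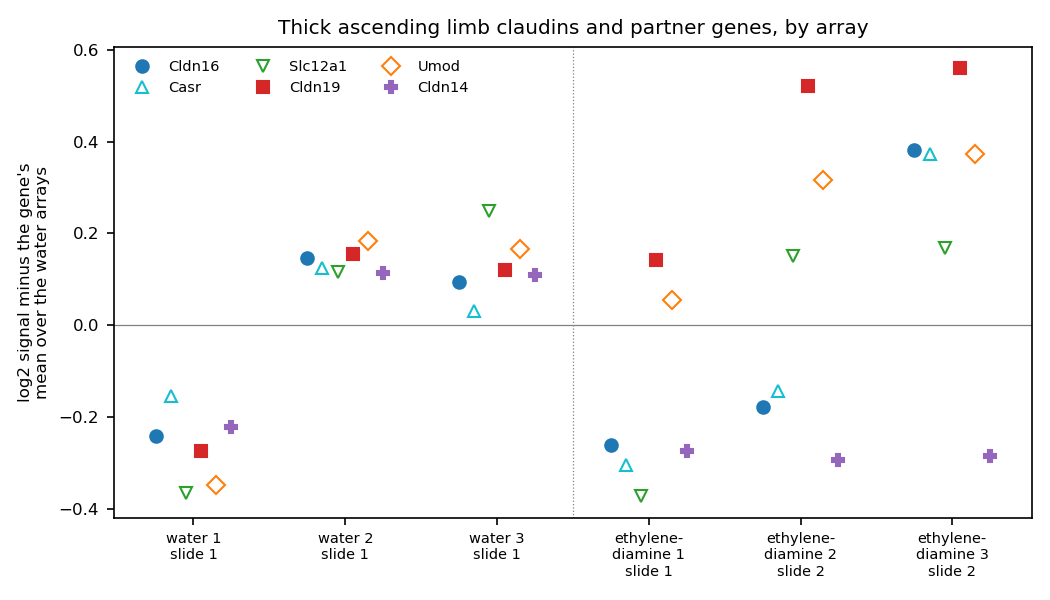
Each marker is 1 gene on 1 array, plotted as its log2 signal minus the gene's mean over the 3 water arrays; filled markers are claudins and open markers other thick limb genes. Cldn16 and Casr lie near each other on every array, Cldn14 is near -0.28 on all 3 treated arrays, and Cldn19 is highest on the 2 arrays of slide 2.

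Cldn3 is a barrier claudin found from the thick limb to the collecting duct, and it gave the smallest unadjusted p of the family. The brighter Cldn3 probe read 0.27, 0.40 and 0.51 in water and 0.75, 0.88 and 1.05 in treated cortex, with every treated array above every water array. Its log2 fold change was 0.50 ± 0.10 (SE, n = 3 per group), or 1.41-fold with a 95% interval of 1.19 to 1.69. The unadjusted p was 0.00306, which ranked it 99th of 11530 genes, and the limma adjusted p was 0.329. Within slide 1 the difference was 0.36. The second Cldn3 probe, which maps to the same transcript, read 0.28, 0.02 and 0.22 in water and 0.07, 0.28 and 0.14 in treated cortex, overlapping groups with a log2 fold change of -0.02 ± 0.10 (limma adjusted p = 0.968 over the kept probes). The difference between the 2 probes within an array was -0.02, 0.38 and 0.29 in water and 0.68, 0.61 and 0.91 in treated cortex, a comparison chosen after its values were seen and given with no test. The mean of both probes had a log2 fold change of 0.24. The Cldn3 result therefore holds for 1 of its 2 probes.

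The genes closest to the brighter Cldn3 probe over the 6 arrays were Prom1 and Anxa2, both from the tubular injury list. Their root mean square differences were 0.095 and 0.112, against 0.274 for Cldn3 itself. Prom1 was also the second closest gene to Cldn19, at 0.126 against 0.280 for Cldn19 itself. Prom1, the gene of prominin-1 of cell surface protrusions, read 3.23, 3.31 and 3.34 in water and 3.42, 3.65 and 3.89 in treated cortex. Anxa2, an annexin, read 3.50, 3.53 and 3.62 against 3.72, 3.98 and 3.94. Their log2 fold changes were 0.36 ± 0.12 and 0.33 ± 0.09 (limma adjusted p = 0.433 and 0.355), and every treated array lay above every water array for both. Prom1 and Anxa2 were picked by closeness to Cldn3 over these same arrays, so their positive differences follow in part from the choice. Within slide 1 the differences were smaller, at 0.12 for Prom1 and 0.16 for Anxa2, and without ethylenediamine replicate 3 Prom1 stood at 0.24. The tubular injury list had 16 of 18 genes measured, 0 of which passed the adjusted threshold by limma. Of the 16 genes, 15 were well above background on all 6 arrays, so the list's values include a gene kept through a single group. Without adjustment p was under 0.05 for 7 genes, each with a positive difference, where 5.39% of all genes were higher and 4.97% lower. The list's median was 0.32 in log2. The summed linear signal of the list ran from 98.5 to 118.5 times the scaling value in water and from 110 to 144 in treated cortex. Its part in the Cldn3 value was not tested.

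Claudin-4, claudin-7 and claudin-8 line the collecting duct, where claudin-4 and claudin-8 together set the chloride path. The brighter Cldn8 probe read 0.19, 0.21 and 0.17 in water and 0.23, -0.0026 and -0.21 in treated cortex. Ethylenediamine replicate 1 was thus the highest array, and replicates 2 and 3 lay below all water arrays. The log2 fold change of Cldn8 was -0.18 ± 0.11 (limma adjusted p = 0.625), and it was -0.29 without ethylenediamine replicate 1 and -0.08 without replicate 3. On the second Cldn8 probe every treated array was below every water array, at -1.07, -1.07 and -1.37 against -0.96, -0.95 and -0.96, with a log2 fold change of -0.21 ± 0.10 (limma adjusted p = 0.508 over the kept probes). Within slide 1 the 2 probes had differences of 0.04 and -0.11, and on slide 2 against water of -0.29 and -0.26. Of the listed genes, Nr3c2, the mineralocorticoid receptor, lay closest to Cldn8, at 0.059 against 0.155 for Cldn8 itself. Atp6v1b1, an intercalated cell marker, came next at 0.067. For Cldn7 the closest was Slc4a1, also an intercalated cell marker, at 0.047 against 0.123 for Cldn7 itself.

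Cldn4 is the neighbour of Cldn3 in the genome, and its 2 probes gave small positive differences. The brighter read 0.29, 0.44 and 0.40 in water and 0.53, 0.75 and 0.34 in treated cortex, where replicates 1 and 2 stood above the water arrays and replicate 3 within them. The log2 fold changes of the 2 Cldn4 probes were 0.17 ± 0.11 and 0.06 ± 0.13 (limma adjusted p = 0.652 over genes and 0.898 over kept probes). Without ethylenediamine replicate 2 the brighter stood at 0.06, and within slide 1 at 0.15. Cldn7 was read by 1 probe, at -0.38, -0.09 and -0.23 in water and -0.07, -0.35 and -0.34 in treated cortex. Its groups overlap, although ethylenediamine replicate 1 was the highest array and water replicate 1 the lowest, and its log2 fold change of -0.02 ± 0.11 had a 95% interval of 0.815- to 1.19-fold (limma adjusted p = 0.964); within slide 1 it was 0.16. Among 13 measured principal cell markers 0 passed the adjusted threshold by limma. Without adjustment p was under 0.05 for 1, with a negative difference, where 4.97% of all genes were lower. Of the 13 markers 11 were negative, where 5898 of all 11530 genes were, and the list's median was -0.10 in log2. That list's summed linear signal ran from 230 to 278 times the scaling value in water and from 182 to 218 in treated cortex. Among 11 measured intercalated cell markers 0 passed the adjusted threshold by limma. Without adjustment p was under 0.05 for 3, each with a negative difference, where 4.97% of all genes were lower. Of these 11 markers 10 were negative, and the list's median was -0.18 in log2. Its sum ran from 215 to 260 in water and from 180 to 204 in treated cortex. Bright genes weigh most in such sums. The part of either list in the Cldn4, Cldn7 and Cldn8 values was not tested.

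**Figure D3:**
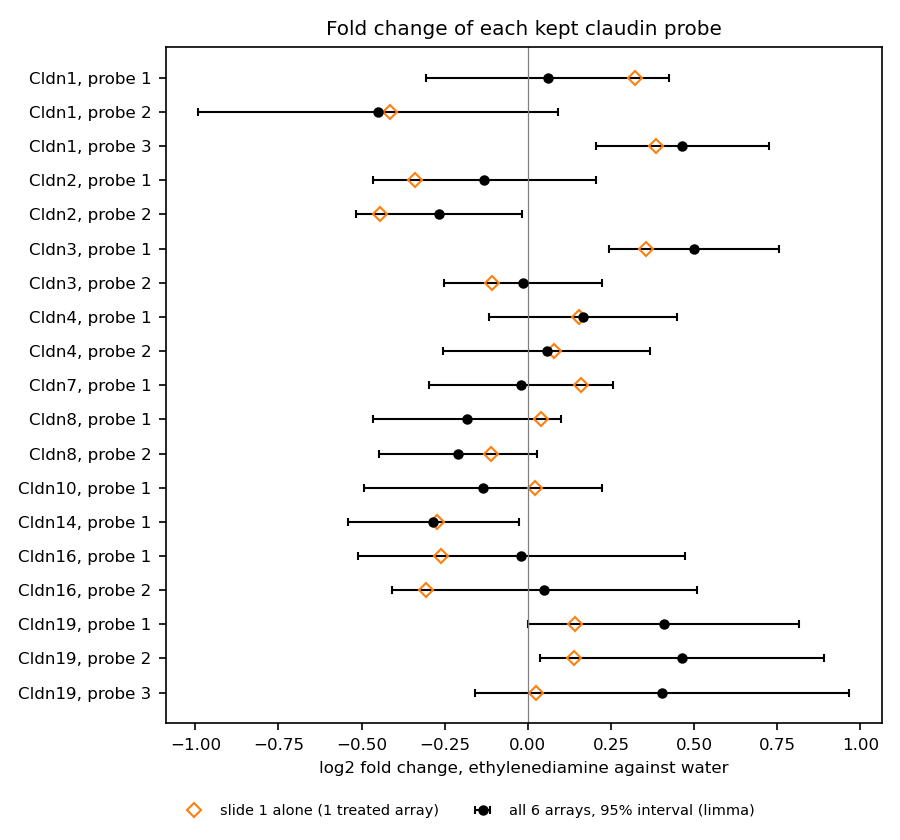
Black points are log2 fold changes of each kept claudin probe over all 6 arrays with 95% intervals from limma, and open diamonds are the difference within slide 1, which has 1 treated array. Probes of a gene are numbered from the brightest; intervals leave out 0 for 6 probes before adjustment, those of Cldn1 (dimmest), Cldn2 (second), Cldn3 (first), Cldn14 and Cldn19 (first and second).

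Where a claudin had more than 1 kept probe, the probes shared a sign in 4 of 7 genes (Cldn2, Cldn4, Cldn8 and Cldn19) and did not in Cldn1, Cldn3 and Cldn16. The spread within groups was wider in the claudins than in most genes: the pooled SD of each of the 10 was above the median of 0.115 over all genes tested, from 0.136 for Cldn3 to 0.289 for Cldn16.

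Other claudins, outside the tubular set, were measured for 9 of 17 listed genes. By limma 0 of the 9 passed the adjusted threshold, and without adjustment p was under 0.05 for Cldn22, with a positive difference, and Cldn18, with a negative one. Over all genes 5.39% were higher and 4.97% lower at that p. The median of the list was -0.07 in log2. Cldn22 read -2.37, -3.04 and -2.15 in water and -1.95, -1.26 and -1.99 in treated cortex, a log2 fold change of 0.79 ± 0.30 (limma adjusted p = 0.461). Without water replicate 2, its lowest array, the value was 0.53, and within slide 1 it was 0.58. Its neighbour and paralog Cldn24, named here after its values were seen, ran in parallel at 0.76 ± 0.37 (limma adjusted p = 0.546). Cldn24 stood at 0.43 without ethylenediamine replicate 2, 0.46 without water replicate 2, 0.48 with normexp and 0.46 within slide 1, and whether the probes tell the 2 apart is not given in the sources used here. Cldn18 had a log2 fold change of -0.24 ± 0.06 (limma adjusted p = 0.343), which was -0.08 with normexp and -0.22 within slide 1. Cldn5, the claudin of endothelial cells, stood at -0.15 ± 0.11, and Cldn12 at 0.09 ± 0.05 (limma adjusted p = 0.671 and 0.616), with slide 1 differences of -0.33 and 0.05.

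Genes of tight junction strand and scaffold partners, a list that also holds cadherin and polarity genes, were measured for 27 of 32 listed symbols. By limma 0 passed the adjusted threshold, around a list median of -0.02 in log2. Without adjustment p was under 0.05 for 4 with a negative and 1 with a positive difference, where 4.97% of all genes were lower and 5.39% higher. The 4 were Cgnl1 (paracingulin, a cytoplasmic plaque protein), the scaffold Magi1, Cdh1 (E-cadherin of the adherens junction) and the polarity scaffold Pals1, and the positive one was the polarity gene Pard3. Cgnl1 read -0.11, -0.19 and -0.20 in water and -0.39, -0.49 and -0.59 in treated cortex, and Magi1 read -1.81, -1.72 and -1.74 against -2.03, -2.14 and -1.98. In both, every treated array lay below every water array, with log2 fold changes of -0.33 ± 0.07 and -0.30 ± 0.06 (limma adjusted p = 0.329 for each) and differences of -0.22 and -0.28 within slide 1. Cdh1 stood at -0.20 ± 0.05, Pals1 at -0.19 ± 0.06 and Pard3 at 0.18 ± 0.07 (limma adjusted p = 0.353, 0.380 and 0.455), and at -0.22, -0.20 and 0.19 within slide 1. Occludin (Ocln), the other main strand protein, stood at 0.02 ± 0.09, and the scaffold gene Tjp1 at -0.13 ± 0.07 (limma adjusted p = 0.947 and 0.593). Within slide 1 Ocln stood at 0.08 and Tjp1 at -0.15, and the sign of Ocln is negative under median scaling.

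Among 23 measured regulators of tubular claudins, 0 passed the adjusted threshold by limma. A negative log2 fold change was seen in 16 of the 23, with a list median of -0.12, where 5898 of all 11530 genes were negative. The 16 include Cdx2, well above background on 3 of 3 water but 2 of 3 treated arrays, so kept through the water group alone. Without adjustment p was under 0.05 for 2, the kinase gene Wnk1 at -0.25 ± 0.07 and Egf, the growth factor gene of the distal tubule, at -0.36 ± 0.12 (limma adjusted p = 0.380 and 0.429). Within slide 1 they stood at -0.12 for both. Egf and Casr also belong to the thick ascending limb list, and Egf is among the lower markers counted there. Of all genes 4.97% were lower at an unadjusted p under 0.05.

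**Figure D4:**
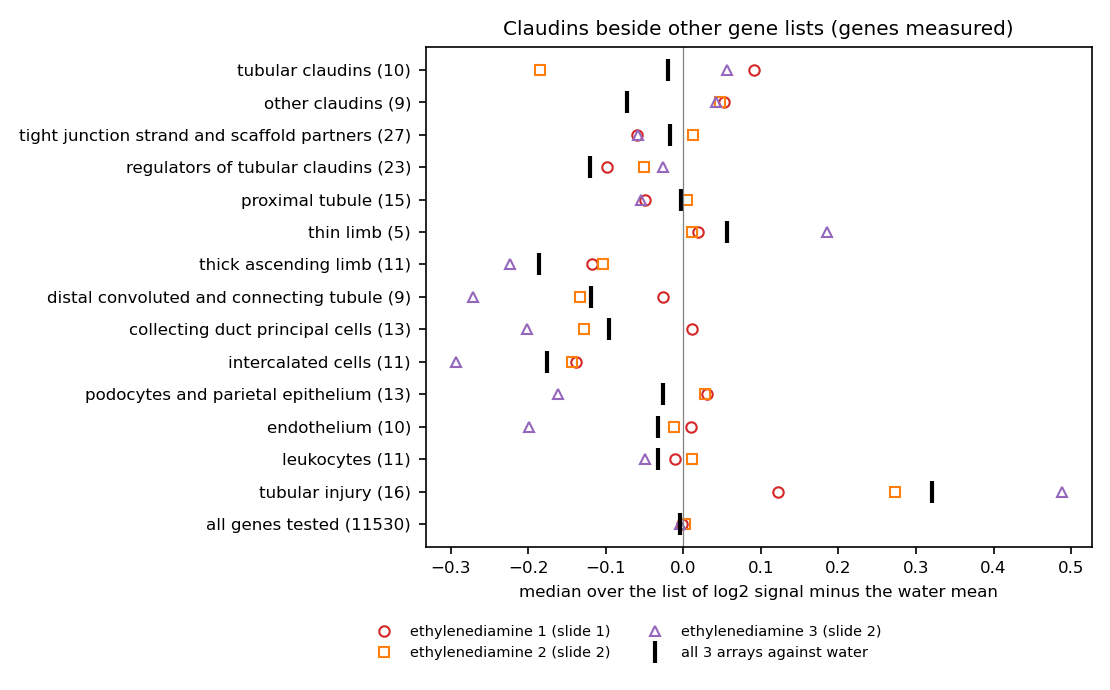
Symbols give, for each treated array, the median over a list of log2 signal minus the water mean of each gene, and black bars the median log2 fold change over all 3 treated arrays, with the number of genes measured in brackets. The claudins lie at 0.09, -0.18 and 0.06 on ethylenediamine replicates 1 to 3, around a median of -0.02, while the tubular injury list lies above 0 on each array.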

How the data were processed

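The authors deposited 1 scanner file per array, which holds linear intensity per spot, with background subtracted and spatial trends removed in Agilent Feature Extraction 10.7.1.1 and not scaled between arrays, per the file headers, with a probe grid built on rn4. The deposited table of processed intensity served as an alternative. Here, log2 intensity minus the 75th percentile of each array was used, without 1439 control spots and 22 probes with outlier flags, and no member spot was saturated. RefSeq accessions gave symbols for 28194 probes through GRCr8, used for names and promoter windows only. Probes well above background on all 3 arrays of a group were kept (37822), and the brightest named 1 of 11530 genes. The comparison used limma 3.58.1 (R 4.3.3), with 4 residual and 1.84 prior degrees of freedom and a Benjamini-Hochberg threshold of 0.05, tested on simulated data. Each array is 1 rat per the labels. The rule for named genes took all members, then the 2 smallest p of each list and a fixed set; genes of lists that bear on no claudin value are given by counts only, and 1 gene is not reported here. Members and lists were chosen with earlier results of these data known. The scanner files hold no mean spot signal in the columns used, so normexp (offset 50) took the median signal.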

Additional observations from a re-analysis of the deposited data

How the results depend on the processing

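Over 21 alternatives 0 of 10 claudins passed the adjusted threshold in any, and the lowest adjusted p of a claudin was 0.179 (Cldn3, without ethylenediamine replicate 1). Of 210 claudin values 191 kept their direction and 19 changed sign, none of them past the threshold. The 191 include values that could not change sign. An intensity trend, the replicate block and every probe tested alone, for example, left each claudin's log2 fold change as it was. The slide as a fixed block and slide 1 alone gave the same estimate and are counted separately. Cldn2, Cldn3, Cldn4, Cldn14 and Cldn19 kept their direction throughout. Cldn16 stood at 0.039 with normexp background and 0.015 as the mean of its probes, Cldn1 at -0.011 with array weights, and Cldn7, Cldn8 and Cldn10 at 0.16, 0.039 and 0.022 both with the slide as a fixed block and on slide 1 alone. Ocln stood at -0.0054 under median scaling, and Casr and Slc12a1 at 0.029 and 0.036 as the mean of their probes. Leaving out 1 array gave -0.071 to 0.20 for Cldn1, -0.11 to 0.051 for Cldn7, -0.22 to 0.031 for Cldn10, -0.22 to 0.10 for Cldn16, -0.034 to 0.093 for Ocln, -0.22 to 0.12 for Casr and -0.20 to 0.16 for Slc12a1. The cause of these changes was not tested. Over all genes tested, 4 passed with every probe tested alone, 1 with an intensity trend, 10 with the slide as a fixed block, 6 on slide 1 alone and 0 to 1 when 1 array was left out, against 0. The replicate number as a replicate block gave 0 genes and 0 claudins, with Cldn3 at an adjusted p of 0.379; deviations of same-numbered arrays correlated at -0.003, 0.022 and -0.008, so the arrays share only a number. The 6 arrays limit the precision.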
